A study of Homo sapiens with 8 samples.

Results

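The 7SK particle and the kinase it holds in check were followed here in HAP1 cells with and without BCDIN3D. The set was taken by gene symbol from the RNA-seq count files and holds 8 genes of 57996: the RNA gene RN7SK, its capping enzyme gene MEPCE, the RNA-binding protein gene LARP7, the inhibitor genes HEXIM1 and HEXIM2, the kinase gene CDK9 and the cyclin genes CCNT1 and CCNT2. All 8 symbols were found, and all 8 had enough counts to be tested.

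HAP1 is a near-haploid human line derived from a chronic myelogenous leukaemia. Wild-type HAP1 cells (WT) were compared with BCDIN3D KO clone 11, a HAP1 clone in which BCDIN3D was knocked out. Cells of both groups grew for 48 h in IMDM with 10% fetal bovine serum and PSQ, and the labels name no other treatment. Stranded total RNA libraries were made from 2 samples per group, labelled with the dates 6 May and 9 May, and small RNA libraries from the same RNA. The knockout was represented by 1 clone, so a difference between clones and an effect of the lost gene cannot be told apart. The series calls the samples biological replicates without saying how the cultures were separated, and p-values reflect only how far these samples vary, a spread that can be technical.

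7SK is an abundant nuclear RNA made by RNA polymerase III. MEPCE methylates the phosphate at its 5′ end and stays bound, LARP7 holds its 3′ end, and HEXIM proteins bound to the RNA capture P-TEFb, the pair of CDK9 and a cyclin T, in an inactive form. Freed P-TEFb phosphorylates paused RNA polymerase II and its pausing factors and so lets transcription elongate. BCDIN3D belongs to the same family of RNA methyltransferases as MEPCE, and a known substrate of BCDIN3D is the 5′ phosphate of histidine tRNA. The comparison therefore asks whether loss of the relative went along with other levels of the 7SK RNA or of the mRNAs of its partners. Neither the cap of 7SK nor any protein was measured.

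The RNA-seq libraries held 20065041 to 24415272 counts. The targeted gene, BCDIN3D, had 7.40 (6 May) and 4.90 (9 May) CPM in wild-type, against 1.56 and 2.71 CPM in knockout, CPM being counts scaled by library size and TMM. Pairs of values below follow the same order of dates. All 10 blood cell markers looked for had at most 8 counts in any library, so the leukaemic origin was not visible in them, while BCR and ABL1 were counted in every library. Mesenchymal markers summed to 475 to 483 CPM in wild-type and 548 to 573 CPM in knockout, and epithelial markers to 69.3 to 78.2 and 50.6 to 58.4 CPM. In the test described below, all 3 tested epithelial markers were lower in knockout (all genes: 3.5%). Of 6 tested mesenchymal markers 2 were higher (all genes: 3.06%) and 0 lower. The part of these markers in the results below was not tested.

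None of the 8 genes passed the test between knockout and wild-type. In edgeR's quasi-likelihood test across 16233 genes, 0 of the 8 were higher and 0 lower in knockout. Of all tested genes 6.56% passed the threshold of an adjusted p of 0.05. At that share 0 of 8 is not unusual. At an unadjusted edgeR p under 0.05 the number was also 0, against 2711 of all 16233 tested genes. With no filter, and likewise with the date as a block, 1 of the 8 had an unadjusted p under 0.05. DESeq2 called 0. Of the fold changes 7 were above 0 and 1 was below 0, against 8176 above and 8057 below over all tested genes. The median log2 fold change was 0.05 against 0.0017 over all tested genes. Their median absolute log2 fold change was 0.06, compared with 0.12 over all tested genes. The largest was that of HEXIM2 at 0.15, and 59.6% of tested genes had a smaller one.

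**Figure D1:**
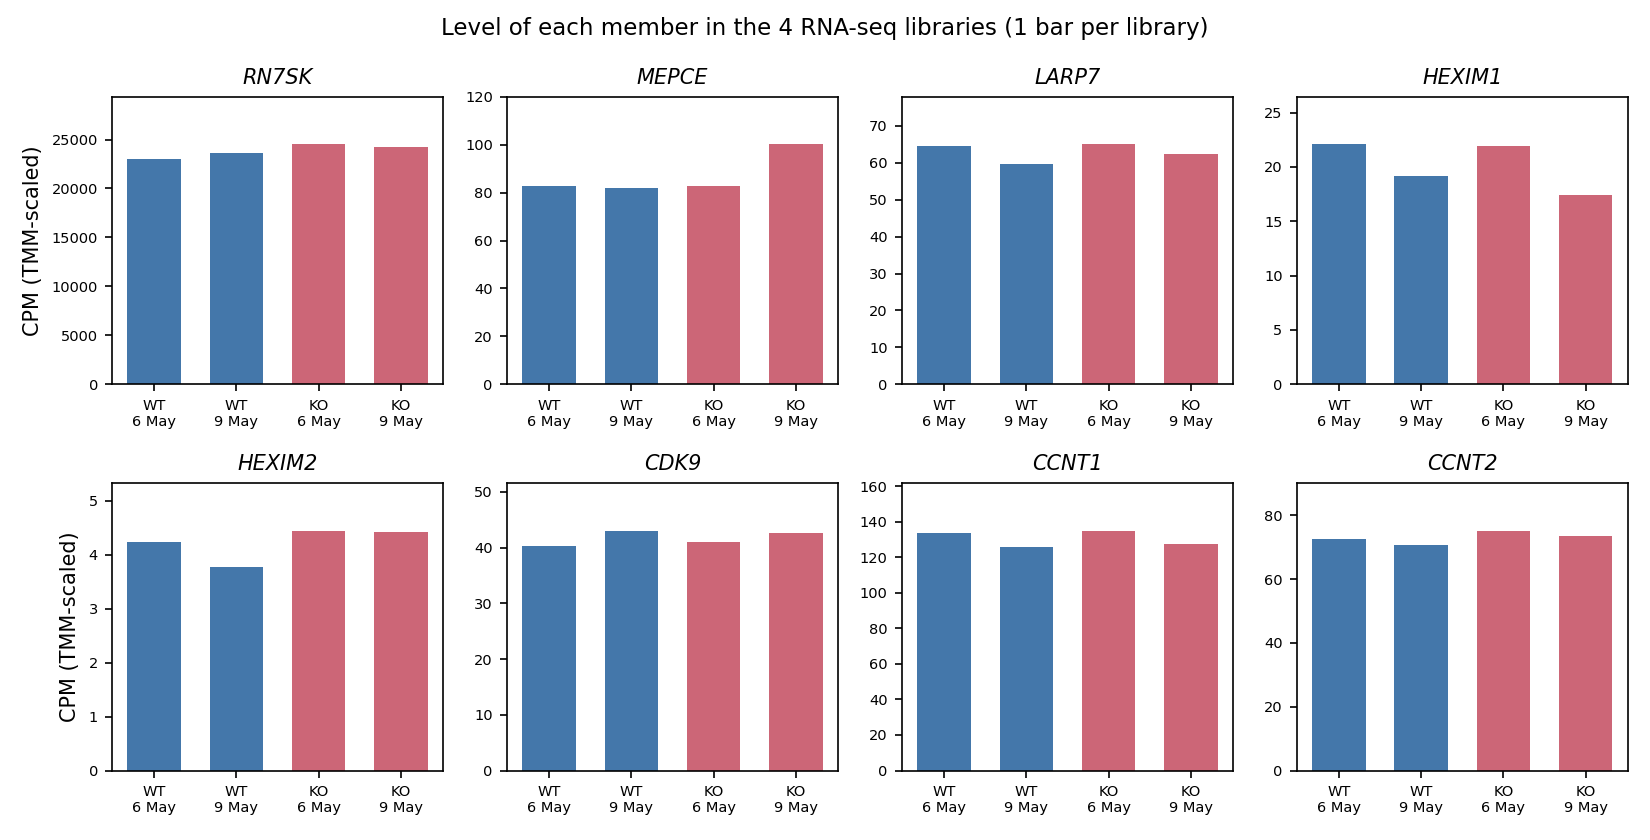
Level of each of the 8 genes in CPM (y axis from 0, own scale per gene) in the 4 RNA-seq libraries; each bar is 1 library, blue for wild-type (WT) and red for knockout (KO). Bars of both groups reach similar heights, apart from MEPCE in the knockout library of 9 May (100.1 CPM) and HEXIM1 on 9 May (19.2 and 17.4 CPM).

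RN7SK was the most abundant row of the whole count table. It took 2.31% and 2.39% of all counts in the wild-type libraries and 2.42% and 2.40% in the knockout libraries, with 479571 to 583534 counts per library. Scaled by TMM it stood at 23050 and 23632 CPM in wild-type and at 24498 and 24253 CPM in knockout. In these bulk samples, fewer cells with a transcript and less of it per cell cannot be told apart. Both knockout libraries lay above both wild-type libraries, by a small margin. Such separation is common here, since the groups did not overlap for 45.3% of all tested genes and for 3 of these 8. The fold change was 1.04 (95% interval 0.979 to 1.11), a log2 fold change of 0.06 ± 0.05 (SE, edgeR adjusted p = 0.574). 

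The gene lies on chromosome 6 (52995620 to 52995951, GRCh38) and spans 332 bases as RefSeq gives it. HEXIM1, known to lack introns, spans 3625 bases, so these 2 genes could be compared per length. RN7SK gave 69428 to 73788 CPM per kilobase and HEXIM1 4.80 to 6.09 CPM per kilobase, a ratio of 11408 to 15223 within a library. That ratio compares a short structured RNA with an mRNA and depends on how well each enters a library. Lengths of the counted exons of the other 6 genes were not used here, so their levels are not ranked against each other.

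Genomic copies of RN7SK had little weight. The files hold 285 symbols of the RN7SKP series, pseudogenes that arose from 7SK RNA, of which 106 had any count and 9 were tested. Together they amounted to 0.131% and 0.129% of the RN7SK count in wild-type and to 0.121% and 0.212% in knockout. The higher share in the knockout library of 9 May came largely from RN7SKP71 (chromosome 12), which had 202 and 216 wild-type counts against 184 and 472 knockout counts. RN7SKP71 did not pass the test (log2 fold change 0.81 ± 0.70, edgeR adjusted p = 0.735). RN7SKP80 (chromosome 22), with 78 and 127 wild-type counts against 117 and 164 knockout counts, came closest to the threshold (0.62 ± 0.20, edgeR adjusted p = 0.0557). Both pseudogenes were picked after their values were seen, and reads of near-identical copies may be split between them and RN7SK. With all RN7SKP counts added, the log2 fold change of RN7SK was 0.06 (edgeR adjusted p = 0.567).

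Other short RNAs gave a mixed picture beside RN7SK. Among 12 RNAs made from promoters of the RN7SK kind, such as U6 and the Y RNAs, 7 were tested, with 0 higher and 0 lower and a median log2 fold change of 0.32. Their counts were low: without RN7SK the 11 present in the files summed to 32.6 and 31.9 CPM in wild-type and 31.5 and 47.4 CPM in knockout. The knockout library of 9 May was thus the high one for this group, while RN7SK was slightly lower in it than in the knockout library of 6 May. RNY1, a Y RNA, stood at 21.2 and 20.3 CPM in wild-type and at 20.7 and 31.1 CPM in knockout (0.32 ± 0.15, edgeR adjusted p = 0.321). Without knockout replicate 1 its log2 fold change was 0.58, from a fit with 1 knockout library and so no spread within that group. RNY4 was counted 8 and 7 times in wild-type, 15 and 20 times in knockout (edgeR adjusted p = 0.122). RMRP and RPPH1 are listed at 0 to 4 counts per library. These are RNAs that every cell uses, so only their listing is given.

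Among 17 other short structured RNAs 12 were tested, with 0 higher and 1 lower. The 1 that fell was BCYRN1 (chromosome 2), the BC200 RNA, a cytoplasmic RNA polymerase III transcript. It went from 34.7 and 33.1 CPM in wild-type to 25.3 and 24.1 CPM in knockout, a log2 fold change of -0.45 ± 0.10 (edgeR adjusted p = 0.000849). This gene held its call in every alternative run on it, DESeq2 included. The signal recognition particle RNA was counted mainly under the copy RN7SL4P, picked after its values were seen, at 5302 and 5201 CPM in wild-type and 5397 and 6042 CPM in knockout (0.12 ± 0.05, edgeR adjusted p = 0.187). As for RNY1 and RNY4, its highest value was that of the knockout library of 9 May.

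MEPCE, the methyltransferase that caps 7SK, came closest to the threshold of the 8 (chromosome 7, 100428790 to 100434118). Its levels were 83.0 and 81.7 CPM in wild-type and 82.8 and 100.1 CPM in knockout. Of the 4 libraries 3 were thus nearly alike, and only the knockout library of 9 May was high. The log2 fold change was 0.15 ± 0.08 (95% interval -0.0040 to 0.31, edgeR adjusted p = 0.318). Compared within each date, it was -0.0034 on 6 May and 0.29 on 9 May. Without the knockout library of 6 May the log2 fold change was 0.28, and without that of 9 May it was 0.0085. Either fit holds 1 knockout library, so the spread within that group is not measured in it. The value therefore rested on 1 library. PPP1R35, the next tested gene after MEPCE at a distance of 1164 bases, had its highest value in the same library (15.3 and 14.3 CPM in wild-type, 16.1 and 18.9 in knockout). ZCWPW1, which ends 87 bases before MEPCE, did not (2.40, 2.19, 1.42 and 2.01 CPM in the same order). Neither neighbour passed the test.

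LARP7, which binds the 3′ end of 7SK and guards it from decay, lies on chromosome 4 (112637143 to 112657586). It stood at 64.6 and 59.6 CPM in wild-type and at 64.98 and 62.5 CPM in knockout, and the groups overlapped. The fold change was 1.03 (95% interval 0.922 to 1.14, edgeR adjusted p = 0.888). The ratio of MEPCE to LARP7 counts was 1.28 and 1.37 in wild-type, against 1.27 and 1.60 in knockout, again set apart by the knockout library of 9 May. The ratio of RN7SK to LARP7 counts was 357 and 397 in wild-type, against 377 and 388 in knockout, so the knockout values fell between the wild-type ones.

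The HEXIM genes, which encode the proteins that inhibit CDK9 when bound to 7SK, lie next to each other on chromosome 17 (HEXIM1 at 45148475 to 45152099, HEXIM2 at 45160174 to 45170040). HEXIM1 stood at 22.1 and 19.2 CPM in wild-type and 21.9 and 17.4 CPM in knockout. The dates differed more than the groups did: both libraries of 6 May lay above both libraries of 9 May. The knockout to wild-type fold change was 0.956 (95% interval 0.812 to 1.12, edgeR adjusted p = 0.867). HEXIM2 was counted far less, with 88 to 94 counts per library, at 4.23 and 3.77 CPM in wild-type and 4.45 and 4.42 CPM in knockout. Its fold change was 1.11, and the low counts left a wide 95% interval of 0.835 to 1.48 (edgeR adjusted p = 0.803). That interval was the widest of the 8.

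Within a library, HEXIM2 counts were 0.192 and 0.196 of HEXIM1 counts in wild-type, against 0.203 and 0.254 in knockout. The difference between groups in this ratio was 0.23 on the log2 scale, below the 0.33 by which the knockout libraries differed from each other. With 2 libraries per group no permutation test can reach the threshold, so ratios are given as values.

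CDK9, the kinase of P-TEFb (chromosome 9, 127786034 to 127790792), stood at 40.2 and 43.05 CPM in wild-type and 41.05 and 42.7 CPM in knockout. The knockout values lay between the wild-type values, and the log2 fold change was 0.0066 ± 0.086 (95% interval of the fold change 0.891 to 1.13, edgeR adjusted p = 0.985). CCNT1, the main cyclin partner (chromosome 12, 48688458 to 48716707), gave 133 and 126 CPM in wild-type and 135 and 128 CPM in knockout. Its fold change of 1.01 had a 95% interval of 0.924 to 1.11 (edgeR adjusted p = 0.947). CCNT2, the other cyclin partner (chromosome 2, 134918822 to 134959342), gave 72.7 and 70.6 CPM in wild-type and 75.2 and 73.4 CPM in knockout. Its fold change was 1.04 (a log2 fold change of 0.05 ± 0.07, edgeR adjusted p = 0.816).

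The ratios within P-TEFb and its inhibitors differed little between groups. CCNT2 counts were 0.545 and 0.560 of CCNT1 counts in wild-type, against 0.557 and 0.575 in knockout. The ratio of CDK9 counts to the sum of both cyclins was 0.195 and 0.219 in wild-type, against 0.195 and 0.212 in knockout. The ratio of summed HEXIM counts to summed cyclin T counts was 0.128 and 0.117 in wild-type, against 0.125 and 0.109 in knockout. In both groups that last ratio was lower on 9 May. Its difference between groups was -0.06 on the log2 scale, against 0.13 between the wild-type libraries and 0.21 between the knockout libraries.

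**Figure D2:**
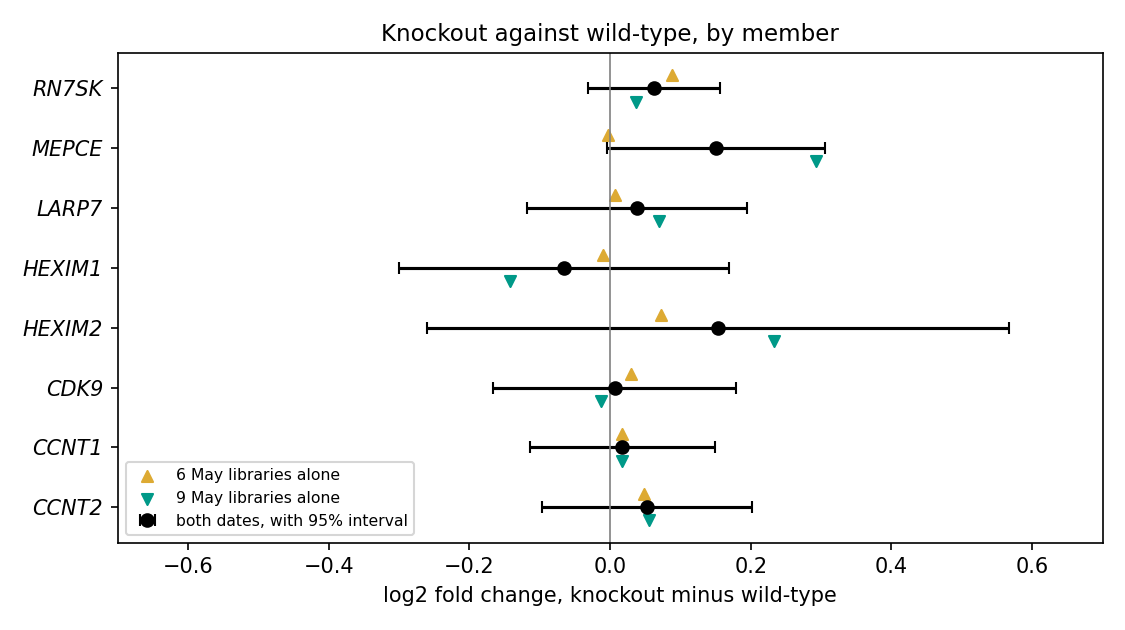
Log2 fold change of knockout against wild-type (x axis) for the 8 genes; black points are the edgeR estimates with 95% intervals, triangles the difference between the single libraries of 6 May (up) or 9 May (down). Every interval includes 0, and the dates lie furthest apart for MEPCE (-0.0034 and 0.29).

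The 2 dates were also compared directly, in the edgeR fit that holds date and genotype together. HEXIM1 was 0.870 times as high on 9 May as on 6 May in wild-type and 0.794 times in knockout, a log2 difference of -0.26 ± 0.09 (edgeR unadjusted p = 0.00934, adjusted p = 0.243). Of the 8 genes 0 passed the threshold for the date, against 0.444% of all tested genes. MEPCE differed by 0.13 ± 0.06 (edgeR adjusted p = 0.458) and RN7SK by 0.01 ± 0.04. Of the 8 genes 5 were lower on 9 May in both groups, namely LARP7, HEXIM1, HEXIM2, CCNT1 and CCNT2, as were 28.4% of all tested genes. CCNT1 was 0.945 times as high on 9 May in both groups, further from 1 than its fold between genotypes.

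**Figure D3:**
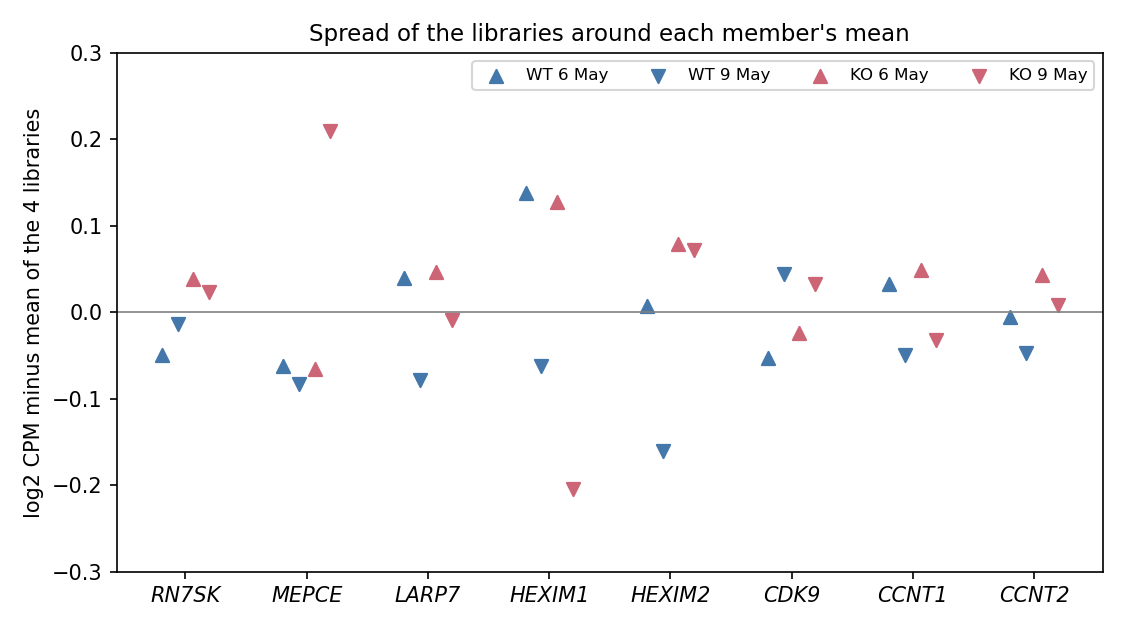
Log2 CPM of each library minus the mean of the 4 libraries (y axis) for the 8 genes; colour gives the group (blue wild-type, red knockout) and the triangle's direction the date (up 6 May, down 9 May). HEXIM1 separates by date (0.14 and 0.13 on 6 May, -0.06 and -0.20 on 9 May), and MEPCE stands out in the knockout library of 9 May (0.21).

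Among the genes with a profile most like RN7SK over the 4 libraries were VPS4B, HEATR3, RPL4 and RPL29. Likeness was the root mean square difference between log2 CPM profiles, each centred on its own mean, among 9746 genes of at least 10 CPM, and lay between 0.0056 and 0.0063 for these 4. For MEPCE they were TCEA2, which encodes a form of the elongation factor TFIIS, PSMD9, DEAF1, ST3GAL2 and ZSWIM8, at 0.0083 to 0.014. TCEA2, for example, stood at 21.4 and 21.3 CPM in wild-type and at 21.7 and 26.3 CPM in knockout. With 4 libraries such matches are a description only.

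The wider P-TEFb pathway, RNA polymerase III and U6 factors, La relatives and short RNAs were described by 11 gene lists. Of their 123 tested genes 0 were higher and 3 lower (all genes: 3.06% higher and 3.5% lower). The 3 were BCYRN1, given above, ELL2 and CDC73. Over the 123 genes the median log2 fold change was -0.02, with 53 above 0 and 70 below 0 (all genes: 8176 above and 8057 below). A fit that blocks on date called 4 higher and 7 lower, against 9.55% of all genes in either direction.

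In the super elongation complex, which carries active P-TEFb to genes, 0 of 10 were higher and 1 lower. ELL2, an elongation factor subunit (chromosome 5), went from 27.5 and 23.0 CPM in wild-type to 20.1 and 15.4 CPM in knockout. Its log2 fold change was -0.50 ± 0.12 (edgeR adjusted p = 0.00357). The call was lost without wild-type replicate 1 (adjusted p = 0.140) and without knockout replicate 2 (adjusted p = 0.157), where the value was -0.33. ELL3, named after its values were seen, was counted 6 and 10 times in wild-type, 26 and 14 times in knockout, and missed the threshold (edgeR adjusted p = 0.0723).

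Among 13 genes of pausing and elongation, which act with or after P-TEFb, 0 were higher and 1 lower. CDC73, a subunit of the PAF1 complex that lies on chromosome 1, went from 52.8 and 50.4 CPM in wild-type to 45.0 and 36.8 CPM in knockout (-0.33 ± 0.09, edgeR adjusted p = 0.0107). That call was lost with DESeq2 (-0.34, adjusted p = 0.0781) and without wild-type replicate 1 (-0.30, edgeR adjusted p = 0.123), at about the same fold, and without knockout replicate 2, where the log2 fold change was -0.20 (edgeR adjusted p = 0.390). With the date as a block NELFCD, a subunit of the negative elongation factor, was higher as well (0.18, blocked edgeR adjusted p = 0.0204).

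Of 13 genes whose products recruit P-TEFb or free it from 7SK, 0 were called. The phosphatase gene PPP1CA stood at 230 and 223 CPM in wild-type and 253 and 259 CPM in knockout (0.18 ± 0.06, edgeR adjusted p = 0.0629). The helicase gene DDX21 stood at 731 and 662 CPM in wild-type and 656 and 600 CPM in knockout (-0.15 ± 0.06, edgeR adjusted p = 0.139). With the date as a block PPP1CA (adjusted p = 0.0121) and TRIM28 (adjusted p = 0.0418) were higher and DDX21 (adjusted p = 0.0180) was lower.

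Of 7 genes for other proteins reported to bind 7SK, 0 were called. All 7 had negative fold changes, with a median of -0.15, as had 8057 of all 16233 tested genes. SSB, which encodes the La protein, stood at 223 and 215 CPM in wild-type and 207 and 175 CPM in knockout (-0.20 ± 0.07, edgeR adjusted p = 0.0656). HNRNPA2B1 stood at 815 and 792 CPM in wild-type and 761 and 627 CPM in knockout (-0.21 ± 0.07, edgeR adjusted p = 0.0692). Both were lowest in the knockout library of 9 May. With the date as a block SSB (adjusted p = 0.00842), HNRNPA2B1 (adjusted p = 0.00233) and SYNCRIP (adjusted p = 0.0261) were lower. SSB and HNRNPA2B1 also passed with scaling by library size alone (edgeR adjusted p = 0.0288 and 0.0372) and with no filter (0.0443 and 0.00440). With a minimum count of 50 SSB passed too (edgeR adjusted p = 0.0395). Neither passed with DESeq2, RLE scaling or scaling that left out short and mitochondrial RNAs. Without knockout replicate 1 the log2 fold changes were -0.32 for SSB and -0.36 for HNRNPA2B1, from a fit with 1 knockout library. Neither was called when any other library was left out.

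Of the 20 factors and RNA polymerase III subunits used at promoters like that of RN7SK 0 were called, 10 with positive and 10 with negative fold changes and a median of -0.01. POLR3K, a small subunit of RNA polymerase III, came closest (0.22 ± 0.08, edgeR adjusted p = 0.0945) and was higher in the blocked fit (edgeR adjusted p = 0.0294). POLR3A, the largest subunit, had -0.14 ± 0.08.

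Of 13 other kinase and cyclin genes of transcription 0 were called, and 11 had negative fold changes, as had 8057 of all 16233 tested genes. CDK7, the kinase of TFIIH, stood at 33.55 and 35.03 CPM in wild-type and 32.7 and 24.5 CPM in knockout (-0.26 ± 0.10, edgeR adjusted p = 0.162), with the low value again in the knockout library of 9 May. Without knockout replicate 1 its log2 fold change was -0.48. CCNC, a cyclin of the Mediator kinase module, had -0.16 ± 0.07. CDK11A and CDK11B are near-identical copies, so their values are uncertain.

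The remaining lists held no call. Of 11 genes for U6 snRNA maturation, a further RNA bound by LARP7, LSM4 (0.13 ± 0.06) and LSM7 (0.14 ± 0.07) had the smallest p. Of 6 genes for La and its relatives these were SSB and LARP4B (-0.14 ± 0.07). Of 15 immediate early genes, whose transcription P-TEFb releases, 12 were tested, with a median log2 fold change of -0.11. IER2 (-0.25 ± 0.11, edgeR adjusted p = 0.230) and MCL1 (-0.12 ± 0.06, edgeR adjusted p = 0.305) were lowest in p.

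**Figure D4:**
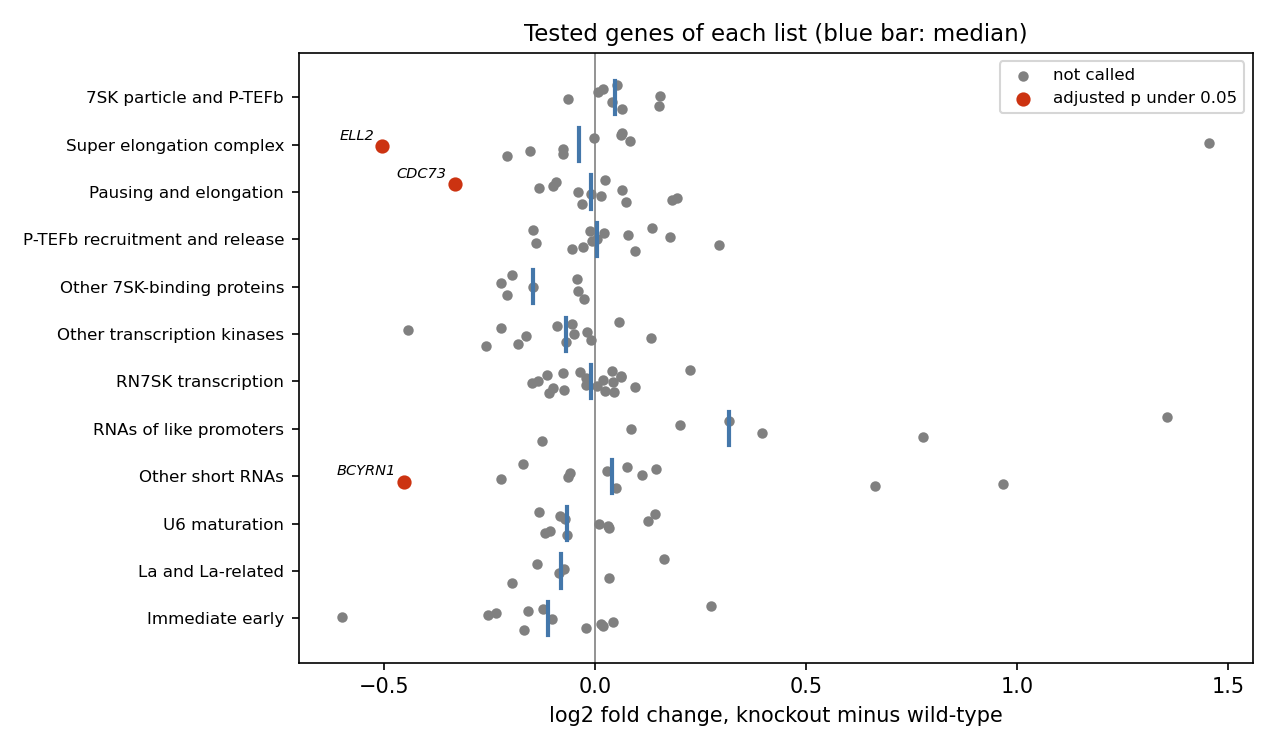
Log2 fold change of knockout against wild-type (x axis) for each tested gene of the 8-gene set and of the 11 lists (rows); grey points missed the threshold, red points passed it (adjusted p under 0.05), blue bars are list medians. The red points are ELL2 (-0.50), CDC73 (-0.33) and BCYRN1 (-0.45), and the 8 genes of the 7SK particle and P-TEFb lie between -0.07 and 0.15.

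RefSeq promoters were available for 7 of the 8 genes, in 12 windows of 300 bases (250 before to 50 after each start). They held a median of 27 CpG dinucleotides against 14 over 35116 promoters. The motif TATATAA, searched on both strands, occurred in 2.57% of all promoters and, among these windows, in 1 of MEPCE and 1 of HEXIM1. These stretches are printed because both genes carry the rare motif. Both were picked after their values were seen, which stood out in unlike ways, MEPCE in 1 library and HEXIM1 by date. A link between the motif and these values was not tested. The stretches are shown on the plus strand of GRCh38.p14, at chr7:100428720-100428839 and chr17:45148405-45148524, with the motif in capitals. It begins at position -30 and -31 from the annotated start.
MEPCE: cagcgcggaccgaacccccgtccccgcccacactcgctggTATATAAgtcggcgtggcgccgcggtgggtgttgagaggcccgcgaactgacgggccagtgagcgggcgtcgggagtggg
HEXIM1: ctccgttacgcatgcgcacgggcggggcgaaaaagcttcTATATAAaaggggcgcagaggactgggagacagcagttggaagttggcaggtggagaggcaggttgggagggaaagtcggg
The GC box GGGCGG occurred in windows of MEPCE, LARP7, HEXIM1, CDK9, CCNT1 and CCNT2 and in 45.0% of all promoters. The full cAMP response element TGACGTCA occurred in 1 LARP7 window, at position -243 from the start, and in 1.85% of all promoters. A match is a description of the letters and shows no binding.

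The LARP7 gene also spans the miR-302 cluster, which lies on the opposite strand and is known from pluripotent cells, so the small RNA libraries were read for it. The 4 miR-302 arms below share the seed, bases 2 to 8 in capitals, while the arm hsa-miR-367-3p has another. Sequences are RefSeq's of GRCh38.p14, minus strand of chromosome 4.
hsa-miR-302a-3p: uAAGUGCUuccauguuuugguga
hsa-miR-302b-3p: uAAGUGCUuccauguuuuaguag
hsa-miR-302c-3p: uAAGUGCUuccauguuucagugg
hsa-miR-302d-3p: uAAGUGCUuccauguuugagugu
hsa-miR-367-3p: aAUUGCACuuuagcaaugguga
All 10 arms together gave 27 and 51 wild-type counts against 23 and 88 knockout counts, or 0.0114%, 0.0191%, 0.0146% and 0.0254% of microRNA counts. The most counted arm, hsa-miR-302d-3p, reached 19 and 7 counts among wild-type and 0 and 43 among knockout libraries. Replicates of a group thus differed far more than the groups. Only hsa-miR-302d-3p (log2 fold change 0.11 ± 1.91) and hsa-miR-367-5p (2.13 ± 2.62) could be tested, both with an edgeR adjusted p of 0.999. For hsa-miR-367-5p the log2 fold change ran from 1.27 to 6.61 when 1 library was left out and was 3.13 with date as a replicate block. In all, 0.366% of tested microRNAs were called. No difference between groups was detectable at this depth. The microRNA rows inside LARP7 in the RNA-seq files had at most 7 counts.

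A further microRNA, miR-2861, lies just before the CDK9 start, at chr9:127785971-127785989 on the plus strand.
hsa-miR-2861: gGGGCCUGgcggugggcgg
Its counts were 4 and 11 for wild-type and 0 and 0 for knockout, below the filter for testing. These are raw counts from small RNA libraries of unlike depth, 236073 and 266466 counts for wild-type and 157706 and 346626 for knockout. The neighbouring hsa-miR-3960 was counted 12 and 8 times, then 0 and 7 times, in the same groups.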

How the data were processed

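Each library came as a file of raw counts that the authors deposited, over 57996 gene symbols or 2656 mature microRNA names. Per the submitters' processing notes STAR, featureCounts (Subread), SAMtools, cutadapt and FastQC were used with hg38. For versions, annotation and strand setting the sources used here give nothing, so reads of antisense partners may be shared. These counts went into edgeR 4.0.16 (R 4.3.3): filterByExpr (minimum count 10), TMM, robust quasi-likelihood F test, Benjamini-Hochberg adjustment over all 16233 genes or 546 microRNAs. Standard errors are the log2 fold change over the square root of F, and 95% intervals use the fit's degrees of freedom. DESeq2 1.42.0 was an alternative, as were other scalings, filters, the date as a block and leaving out libraries. The fit was also run on simulated counts with a common spread for all genes, a simpler setting than these data. Replicates differed by more than sampling noise (chi-square per degree of freedom 3.95 and 4.80). The labels' dates pair the libraries, and deviations of same-date libraries correlated at 0.12 across genes.

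Members and lists were chosen with earlier results of these data known. Named genes were the 8 members and BCDIN3D, up to 2 called genes each way per list (or 2 of smallest p), genes overlapping a member, and the 5 profiles nearest to RN7SK and MEPCE. Some results under this rule are not reported here. Positions are RefSeq's. Intervals cover no error beyond these libraries. Reads carried no molecular identifiers.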

Additional observations from a re-analysis of the deposited data

Results flagged for a closer look

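For MEPCE and CDK9 the single-library differences had opposite signs at the 2 dates, in part through values near 0. MEPCE was at -0.0034 (log2, knockout minus wild-type) on 6 May and at 0.29 on 9 May. CDK9 was at 0.029 on 6 May and at -0.012 on 9 May. With 1 library per group and date, these differences between dates were not tested.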

How the results depend on the processing

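The number of genes higher in knockout was 497, with 255 by DESeq2, 767 with the date as a replicate block and 240 to 684 when 1 library was left out. The number lower was 568, with 331 by DESeq2, 784 with the replicate block and 340 to 705 when 1 library was left out. Of the 8 genes 0 passed the threshold in any alternative that kept all libraries, and 0 to 1 when 1 library was left out (MEPCE without knockout replicate 1). Listed genes higher were 0, with 4 under the replicate block and 0 to 5 when 1 library was left out. Listed genes lower were 3, with 7 under the block and 2 to 8 when 1 library was left out. Leaving out 1 library leaves 1 library in its group, so calls gained or lost in those runs carry no spread within that group. Signs near 0 turned for CDK9 with library size only (-0.020) and a minimum count of 50 (-0.0054) and for CCNT1 with library size only (-0.0093). When 1 library was left out, log2 fold changes ran from -0.043 to 0.059 for CDK9, -0.023 to 0.059 for CCNT1, -0.018 to 0.10 for LARP7 and -0.24 to 0.090 for HEXIM1. For hsa-miR-302d-3p the value was -1.25 under the replicate block and -6.69 to 1.16 when 1 library was left out. The block changed no call among the 8 genes. The cause of these changes was not tested. Scaling by library size alone left 36.7% of all calls higher, against 46.8% with scaling that left out short and mitochondrial RNAs. Depth limits HEXIM2 and the microRNAs.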
